A study of Mus musculus with 18 samples.

Results

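The genes described here are 10 that mark or serve the blood vessels of the mouse retina: Pecam1, Cdh5, Kdr, Flt1, Cldn5, Tek, Vegfa, Plvap, Angpt2 and Pdgfrb. They were taken by symbol from the deposited gene counts. All 10 were found among 23420 gene symbols, and all 10 passed the filter on low counts that left 15196 genes for testing. Retinas of 9 wild-type BALB/cJ mice, an albino strain, were sequenced in 3 groups of 3, and each mouse was read in 2 sequencing runs whose counts were summed. The mice were 8 to 10 weeks old, of both sexes, and carried the light-sensitive variant of RPE65. Naïve mice are labelled as without light exposure and without treatment. The vehicle group received DMSO, and the TD139 group 15 mg/kg of TD139 in DMSO, a small-molecule inhibitor of galectin-3. Mice of both groups were injected daily into the peritoneum from the day before a 1 h exposure to white light of 15000 lux, and their retinas were taken 4 days after it. No group is labelled as given light without DMSO or DMSO without light, so light and injected DMSO cannot be told apart where vehicle mice are set against naïve ones.

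The retina is fed by its own capillaries, whose endothelial cells are sealed by tight junctions into the inner blood-retina barrier and wrapped by an unusually dense cover of pericytes, and by the choroid behind it, whose capillaries are fenestrated. Vegfa, made by glia and neurons and induced by lack of oxygen, acts on endothelial cells through Kdr (VEGFR2), the main signalling receptor, while Flt1 (VEGFR1) binds Vegfa tightly and signals weakly. Tek (TIE2) is the receptor of the angiopoietins, of which Angpt2 is released by activated endothelium and can loosen vessels. Pecam1 and Cdh5 (VE-cadherin) join endothelial cells to each other, Cldn5 is the claudin of tight junctions, Plvap forms the diaphragms of fenestrated endothelium, and Pdgfrb is the receptor through which pericytes are recruited. Kdr has also been described outside vessels in the retina, in neurons and glia.

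The files held between 26171887 and 30201517 reads on genes per mouse. One value of 3 counts, the limit that a count of 0 allows, corresponded to 0.0993 to 0.115 CPM (counts scaled to the library size), and the lowest count of any of the 10 genes in a mouse was 77, for Cdh5. Reads outside genes were 16.5 to 19.4% in vehicle, 19.1 to 19.9% in naïve and 21.3 to 22.8% in TD139 mice. Markers of the labelled tissue were present: the summed level of 10 rod genes was 45642 to 89874 CPM, and that of 16 endothelial identity genes such as Tie1, Egfl7 and Esam was 66.1 to 101 CPM. All 16 of the latter and 15 of 17 further pericyte and mural genes passed the filter. In RNA of whole retina, fewer cells of a type and less RNA per cell cannot be told apart.

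Upstream sequence was at hand for 5 of the 10 genes (Kdr, Flt1, Cldn5, Tek and Vegfa) in the RefSeq promoter table on GRCm38.p6. The 250 bases before the start site are shown for the VEGF receptors, which had the largest differences after light, and for Cldn5, which was lower with TD139. Capitals mark AGGAAG, the core of the ETS site bound by ERG and FLI1, searched with ACGTG, the core of the hypoxia response element, and ATTGTT, a SOX site, on both strands of the 300-base windows. Kdr lies on the minus strand at chr5:75978456-75978705, Flt1 on the minus strand at chr5:147726012-147726261 and Cldn5 on the plus strand at chr16:18776597-18776846. The genes themselves span chr5:75932827-75978458, chr5:147561604-147726011 and chr16:18776847-18778262.
Kdr: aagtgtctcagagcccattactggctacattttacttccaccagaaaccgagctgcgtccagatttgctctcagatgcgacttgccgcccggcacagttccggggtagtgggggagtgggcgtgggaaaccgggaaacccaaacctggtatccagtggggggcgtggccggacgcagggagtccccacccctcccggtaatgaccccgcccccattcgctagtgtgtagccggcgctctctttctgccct
Flt1: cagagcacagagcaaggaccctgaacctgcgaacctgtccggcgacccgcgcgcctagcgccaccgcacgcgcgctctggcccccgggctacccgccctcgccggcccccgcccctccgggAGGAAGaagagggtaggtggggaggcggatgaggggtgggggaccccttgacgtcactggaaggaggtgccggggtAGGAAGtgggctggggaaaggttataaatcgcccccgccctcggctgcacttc
Cldn5: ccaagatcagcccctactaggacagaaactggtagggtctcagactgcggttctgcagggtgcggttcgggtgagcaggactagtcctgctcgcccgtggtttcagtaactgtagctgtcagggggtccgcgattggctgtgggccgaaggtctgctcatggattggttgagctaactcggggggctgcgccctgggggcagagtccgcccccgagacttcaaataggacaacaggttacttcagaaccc
The Flt1 window held AGGAAG at 2 positions, starting 129 and 53 bases before the start site, and neither Kdr nor Cldn5 held any of the 3 motifs. Tek held ATTGTT 63 bases before its start site and Vegfa none of the 3 in the window before its start. A second Vegfa window of the table lies within the gene and was not used. Over all 32851 windows of the table, 35.4% held AGGAAG, 19.6% ACGTG and 10.7% ATTGTT. A match or its absence says only which letters stand in the window.

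Per kilobase of transcript, the 10 genes spanned a wide range in naïve retinas. Vegfa was highest with 61.8 ± 10.5 CPM per kb (SD, n = 3) and Kdr came next with 29.8 ± 6.12, 36.2 times the 0.822 ± 0.11 of Cdh5, which is also made by endothelial cells. Plvap followed with 12.7 ± 1.72, Cldn5 with 11.7 ± 2.91 and Flt1 with 6.8 ± 1.93. The values of Plvap and Cldn5 overlapped, as did those of Cldn5 and Flt1, so these neighbours did not differ beyond the spread between mice. Pdgfrb stood at 3.78 ± 0.365, Pecam1 at 2.81 ± 0.187 and Angpt2 at 1.4 ± 0.215, without overlap between neighbours. Tek, at 0.941 ± 0.185, overlapped Cdh5 at the lower end. Plvap, the gene of fenestrated vessels, was thus as high per length as Cldn5, the gene of barrier vessels: its ratio to Cldn5 was 0.955 to 1.28 in naïve, 0.805 to 1.32 in vehicle and 1.11 to 1.2 in TD139 mice. The retinal samples also held transcripts of the retinal pigment epithelium, which adjoins the fenestrated choroid: the summed level of 10 such markers was 301 to 469 CPM in naïve mice, with 334 to 648 in vehicle and 351 to 361 in TD139 mice. Without Otx2, which photoreceptors also express, the sum was 129 to 289, 239 to 516 and 141 to 208 CPM. Their part in the Plvap level was not tested. Kdr exceeded Flt1 per length in every mouse, by 2.7 to 6.6 times.

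**Figure D1:**
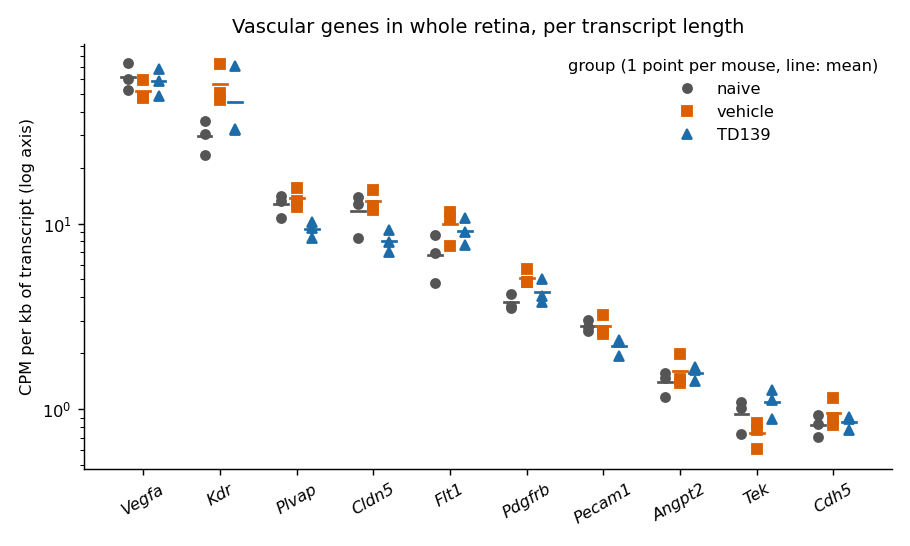
Level of the 10 genes in CPM per kb of transcript on a log axis, ordered by the naïve mean, with 1 point per mouse and a line at each group mean. Vegfa and Kdr stand above the other genes in all groups, and Tek and Cdh5 share the lowest levels.

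In vehicle against naïve mice none of the 10 genes passed an adjusted p of 0.05 in edgeR, where 7.8% of all 15196 genes did (746 higher and 439 lower, and 893 and 258 with library sizes alone in place of TMM normalization). The number called over all genes, 1185, changed when 1 mouse was left out. Without naïve mouse 1, 2 or 3 it was 91, 1 and 217. Without vehicle mouse 1, 2 or 3 it was 249, 973 and 84. Without TD139 mouse 1, 2 or 3 it was 1982, 978 and 901. Kdr, Flt1 and Pdgfrb had the highest fold changes, and these 3 were also the genes with an unadjusted p under 0.05, which 27.6% of all genes had. DESeq2 called 1 gene (Pdgfrb) and limma voom, with weights for the quality of each mouse, 2 (Pdgfrb and Flt1), where these tools called 15.9% and 22.5% of all genes. The median log2 fold change was 0.19 over the 10 genes and 0.00 over all genes tested. With an adjusted p under 0.05 and a log2 fold change of at least 2 in size, the fold that the study asks for, stood 1.24% of all genes and none of the 10.

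Kdr stood at 180, 211 and 138 CPM in naïve mice 1 to 3 and at 428, 276 and 300 CPM in vehicle mice. Every vehicle mouse was above every naïve mouse, and within the vehicle group mouse 1 lay well above the other two. The log2 fold change was 0.93 with a standard error of 0.34 and a 95% interval of 0.16 to 1.69 (adjusted p = 0.12 in edgeR). It ran from 0.72 to 1.08 when each mouse was left out in turn. With TD139 mouse 1 left out of the fit, in which the groups share 1 estimate of the spread, it was 0.93 with an adjusted p of 0.014, and with the naïve and vehicle mice alone 0.94 with an adjusted p of 0.0278.

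Pdgfrb, the pericyte receptor, stood at 22.7, 19.6 and 19.1 CPM in naïve and at 26.4, 30.7 and 26.1 CPM in vehicle mice. These groups did not overlap either. Its log2 fold change was 0.44 with a standard error of 0.14 (interval 0.14 to 0.74, adjusted p = 0.071 in edgeR, and 0.0297 in DESeq2, 0.00879 in limma voom, 0.0491 with library sizes alone and 0.0358 without TD139 mouse 1). Without vehicle mouse 2, which had the highest Pdgfrb, it was 0.36 (adjusted p = 0.17). Kdr and Pdgfrb were the 2 of 10 genes whose vehicle mice all lay above the naïve mice, where 16.6% of all genes did so. None lay wholly below, against 16.7% of all genes.

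Flt1 stood at 33.1, 47.8 and 59.7 CPM in naïve and at 79.7, 52.2 and 73.7 CPM in vehicle mice. Naïve mouse 3 was above vehicle mouse 2, so the groups overlapped. The log2 fold change was 0.55 with a standard error of 0.23 (adjusted p = 0.149 in edgeR). With each mouse left out in turn it ran from 0.36 (without naïve mouse 1) to 0.77 (without naïve mouse 3). Vegfa, the ligand of both receptors, was at 180, 207 and 252 CPM in naïve and 165, 164 and 205 CPM in vehicle mice, a log2 fold change of −0.26 with an interval of −0.60 to 0.08. The per-length ratio of Vegfa to Kdr was 1.69 to 3.12 in naïve and 0.661 to 1.17 in vehicle mice, without overlap, and 0.691 to 2.12 in TD139 mice.

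The junction genes, Plvap, Tek and Angpt2 had 95% intervals that reach to either side of 0. The log2 fold change was 0.00 for Pecam1 (interval −0.35 to 0.35), 0.22 for Cdh5 (−0.26 to 0.70), 0.17 for Cldn5 (−0.25 to 0.60) and 0.11 for Plvap (−0.19 to 0.42). Tek had −0.34 (−0.86 to 0.18) and Angpt2 0.20 (−0.25 to 0.66). For each of these 6 genes the mice of the groups overlapped.

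**Figure D2:**
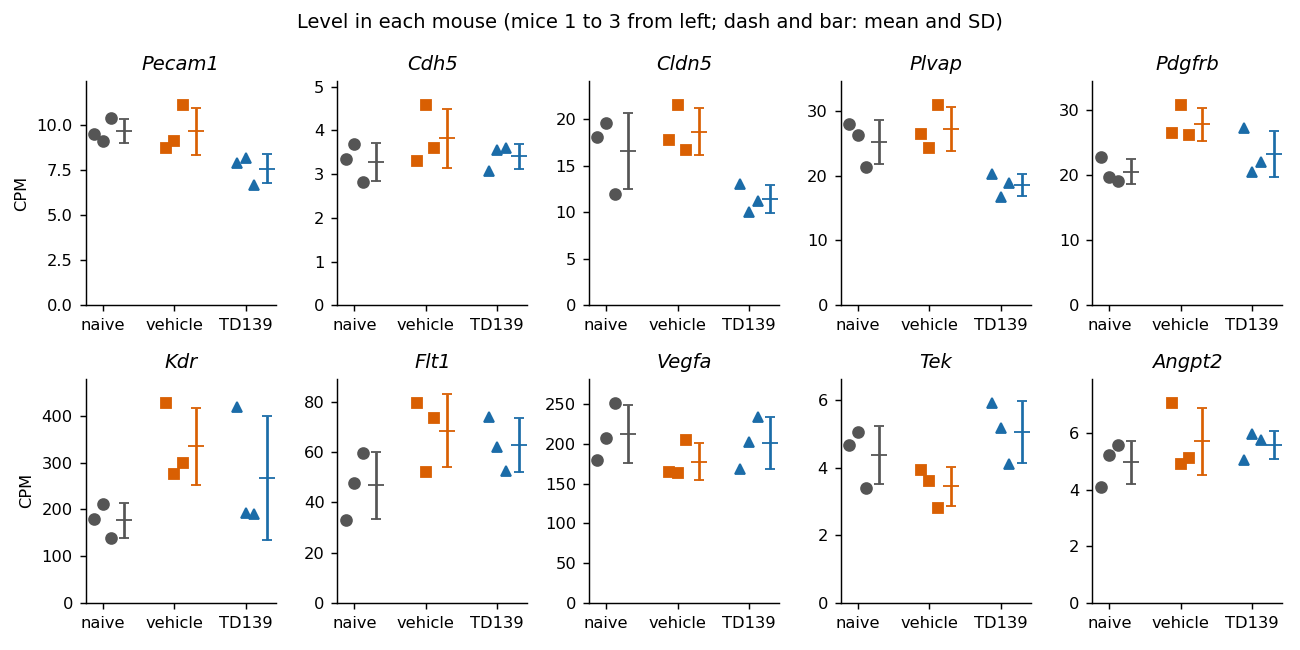
CPM of each of the 10 genes in every mouse (mice 1 to 3 from left within a group), with the group mean and SD as a dash and bar. Kdr and Pdgfrb lie higher in each vehicle than in each naïve mouse, Cldn5, Plvap and Pecam1 lie lower in each TD139 than in each vehicle mouse, and TD139 mouse 1 has a Kdr level of 419 CPM against 192 and 190 CPM in mice 2 and 3.

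In TD139 against vehicle mice Cldn5 and Plvap fell, while no gene of the 10 was called higher. The 2 of 10 called lower compare with 16.2% of all genes called lower, and the 0 called higher with 17.2% called higher (2455 and 2617 genes, or 3040 and 1942 with library sizes alone). The share of the 10 genes was thus near that of all genes. The 5072 genes called in either direction became 1626 without TD139 mouse 2, 1917 without TD139 mouse 3 and 2526 without vehicle mouse 3. An unadjusted p under 0.05 was reached by 3 of 10 genes (Cldn5, Plvap and Tek) and by 46.4% of all genes. DESeq2 called the same 2 genes and limma voom these and Pdgfrb, where they called 38.6% and 46.2% of all genes. None was called with a fold change of at least 2 on the log2 scale, as 1.65% of all genes were. The median log2 fold change was −0.21 over the 10 genes and −0.02 over all genes.

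Cldn5, the claudin of the barrier, stood at 17.7, 21.5 and 16.7 CPM in vehicle and at 13, 9.98 and 11.2 CPM in TD139 mice. The highest TD139 mouse was below the lowest vehicle mouse. Cldn5 fell by 0.71 on the log2 scale with a standard error of 0.20 (interval −1.14 to −0.28, adjusted p = 0.0191 in edgeR). The call was lost without TD139 mouse 2 (adjusted p = 0.0872), without TD139 mouse 3 (0.0702) or without vehicle mouse 2 (0.0639), at log2 fold changes of −0.63, −0.70 and −0.59.

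Plvap, of fenestrated endothelium, lies on the minus strand at chr8:71497765-71511752. It was at 26.4, 24.3 and 30.9 CPM in vehicle and at 20.2, 16.7 and 18.8 CPM in TD139 mice, again without overlap. Plvap fell by 0.55 on the log2 scale with a standard error of 0.14 (interval −0.86 to −0.24, adjusted p = 0.0147 in edgeR). Without TD139 mouse 2 or 3 or vehicle mouse 3 the adjusted p was 0.0723, 0.0555 and 0.0624. The annotation places the gene Gtpbp3 on the opposite strand across the end of Plvap, and whether the counting used strand is not given in the sources used here. Gtpbp3 had a log2 fold change of 0.21 (adjusted p = 0.138 in edgeR).

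Cldn5 and Plvap have the shortest and most GC-rich transcripts of the 10 genes, 1.416 kb with 60.4% GC and 1.987 kb with 60.6% GC, where the other 8 are 3.441 to 6.895 kb long with 47.1 to 54.9% GC. Across the 15066 tested genes with a length, the log2 fold change of TD139 against vehicle mice had a Spearman correlation of 0.49 with transcript length and −0.36 with GC content, given as a description since genes share the libraries. For vehicle against naïve mice these values were −0.11 and 0.13. After a correction of each library for its trend with length and GC content, Cldn5 had a log2 fold change of −0.20 (interval −0.54 to 0.13, adjusted p = 0.358 in edgeR) and Plvap −0.13 (−0.37 to 0.10, adjusted p = 0.385), and none of the 10 genes was called. Over all genes 1529 were then called higher and 1618 lower.

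**Figure D3:**
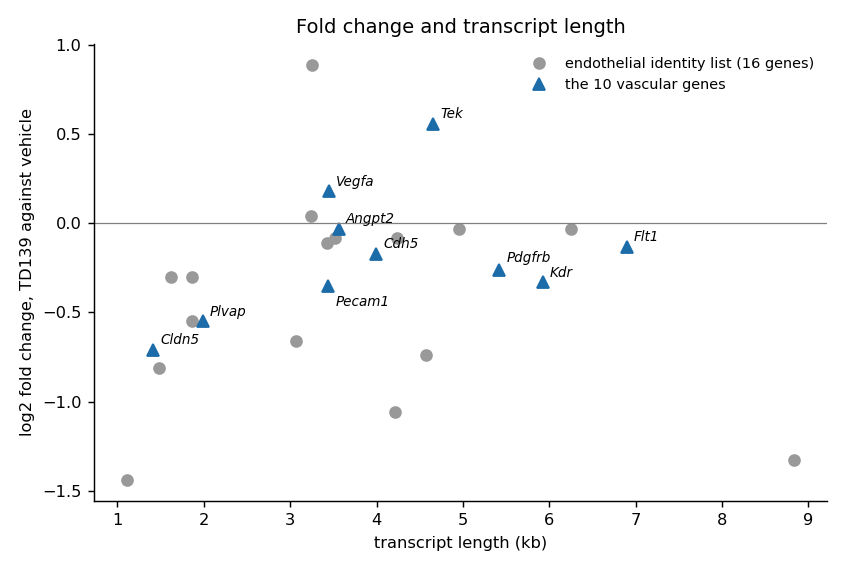
Log2 fold change of TD139 against vehicle mice against transcript length in kb, with the 10 vascular genes as labelled triangles and the 16 endothelial identity genes as grey points. Cldn5 and Plvap are the 2 shortest of the 10, and 14 of the 16 endothelial identity genes lie below 0, or 11 after the length and GC correction, where 51.3% of all genes lie below 0 before it.

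Pecam1 was at 8.72, 9.09 and 11.1 CPM in vehicle and at 7.89, 8.14 and 6.64 CPM in TD139 mice. These did not overlap, at a log2 fold change of −0.35 with an interval of −0.70 to 0.00 (adjusted p = 0.108 in edgeR), and the value was −0.33 after the length and GC correction. It was −0.54 in run 1 alone and −0.17 in run 2 alone. Tek, the angiopoietin receptor, was at 3.93, 3.6 and 2.82 CPM in vehicle and at 5.93, 5.18 and 4.11 CPM in TD139 mice. It was the 1 gene of 10 that lay wholly above, with 0.56 on the log2 scale (interval 0.04 to 1.08, adjusted p = 0.0885), or 0.35 after the correction. With Pecam1, Cldn5 and Plvap, 3 of 10 genes lay wholly below the vehicle mice, where 25.4% of all genes did, and 26.1% of all genes lay wholly above.

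The remaining genes overlapped between vehicle and TD139 mice. Cdh5 had a log2 fold change of −0.17 (interval −0.65 to 0.32) and Angpt2 of −0.03 (−0.49 to 0.42). Flt1 had −0.13 (−0.63 to 0.38), or −0.43 (−0.87 to 0.00) after the length and GC correction. Vegfa had 0.18 (−0.15 to 0.52). Pdgfrb, at 27.2, 20.4 and 22 CPM in TD139 mice, had −0.26 (−0.56 to 0.04, adjusted p = 0.16 in edgeR). Angpt2 lies within the span of Mcph1, a gene on the opposite strand, and the span of Cdh5 overlaps the antisense gene Gm29682. Only whole gene spans were compared, and whether exons overlap was not examined. Mcph1 had a log2 fold change of 0.45 (adjusted p = 0.113 in edgeR).

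**Figure D4:**
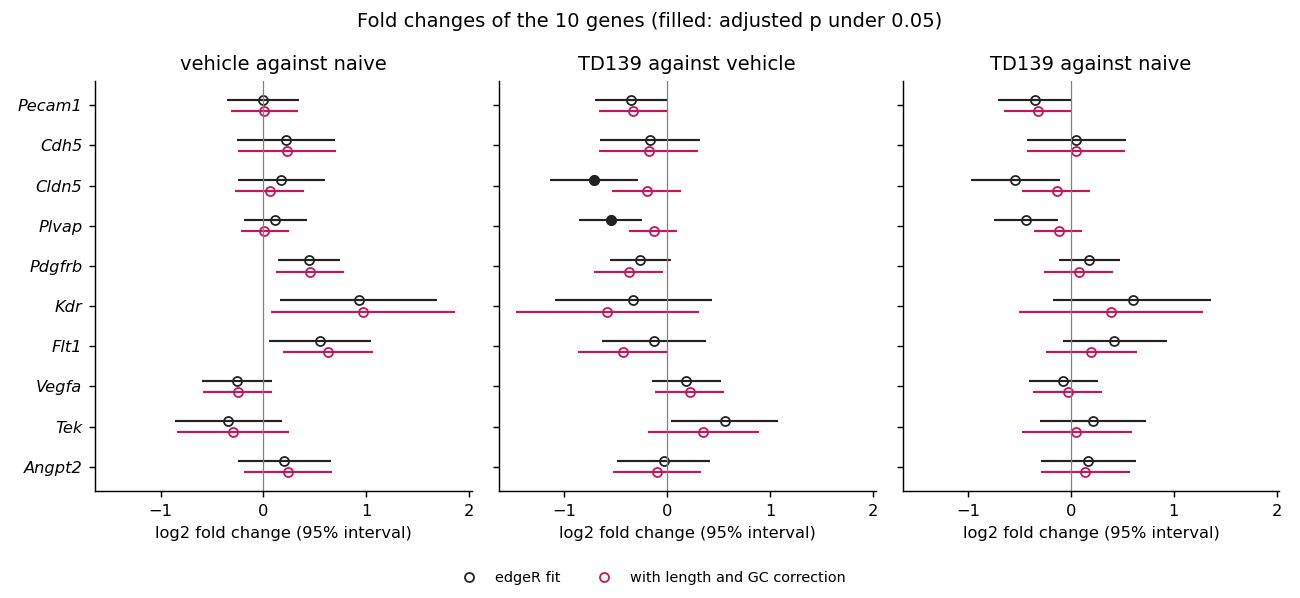
Log2 fold changes of the 10 genes with 95% intervals in the 3 comparisons, from the edgeR fit (dark) and after correction for transcript length and GC content (pink). Filled points have an adjusted p under 0.05, which Cldn5 and Plvap reach in TD139 against vehicle mice before the correction, at −0.71 and −0.55.

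The TD139 mice differed among themselves in Kdr. Mouse 1 stood at 419 CPM, near the highest vehicle mouse, whereas mice 2 and 3 stood at 192 and 190 CPM, within the naïve range of 138 to 211 CPM. The log2 fold change against vehicle was −0.33 with an interval of −1.09 to 0.44 (adjusted p = 0.47 in edgeR), and −0.81 without TD139 mouse 1 (standard error 0.22, adjusted p = 0.0171). It was −0.11 without vehicle mouse 1 and −0.14 and −0.13 without TD139 mouse 2 and 3, −0.58 after the length and GC correction (interval −1.47 to 0.31) and −0.69 in limma voom (adjusted p = 0.0794). Pdgfrb was likewise called lower without that mouse, at −0.39 (adjusted p = 0.0454), so that 4 of the 10 genes were then called, where 38.4% of all genes were.

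TD139 mouse 1 also stood apart in markers of other cell types. The summed level of 13 microglia and macrophage genes was 158 CPM there against 31.9 and 28.8 CPM in TD139 mice 2 and 3, 40.6 to 44.7 CPM in naïve mice and 264 to 549 CPM in vehicle mice. Müller glia and astrocyte genes summed to 8364 CPM against 5908 and 6027 CPM, and rod genes to 64149 CPM against 79764 and 72576 CPM. The 16 endothelial identity genes summed to 79.8 CPM against 68.9 and 68.4 CPM, a smaller step than that of Kdr. The part of these cells in the Kdr level was not tested. Flt1 in TD139 mice 1 to 3 was at 73.9, 62.2 and 52.5 CPM and Cdh5 at 3.08, 3.55 and 3.6 CPM, so the TD139 mouse with the highest Kdr had the lowest Cdh5 of its group. The ratio of Kdr to Cdh5 per length was 91.8 in TD139 mouse 1 and 87.8 in vehicle mouse 1, and 33.1 to 56.3 in the other mice.

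**Figure D5:**
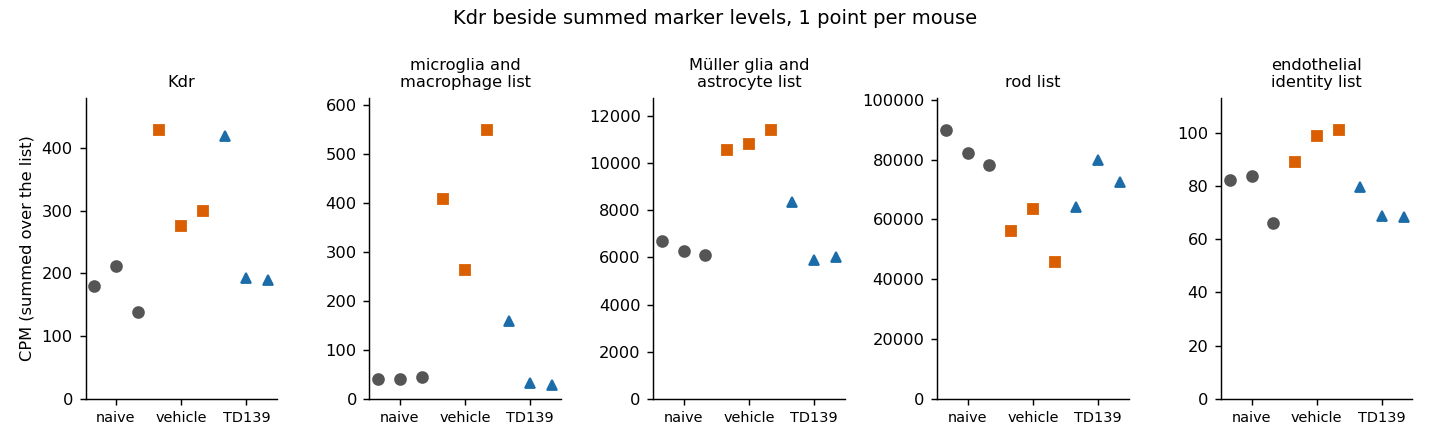
Kdr and the summed levels of 4 marker lists in CPM, with 1 point per mouse. TD139 mouse 1, the leftmost triangle, is at 419 CPM for Kdr and lies between the vehicle mice and the other TD139 mice for the microglia and Müller glia lists.

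Against naïve mice, TD139 mice showed no called gene of the 10 in edgeR, where 5.1% of all genes were called (413 higher and 362 lower, and 366 and 194 with library sizes alone). These 775 calls became 0 with the length and GC correction, with a replicate block, or without naïve mouse 1 or 2, TD139 mouse 2 or 3 or vehicle mouse 2, and 1 with only the groups compared. They became 420 without vehicle mouse 1, 469 without vehicle mouse 3, 1654 without TD139 mouse 1 and 2679 without naïve mouse 3. DESeq2, which called 2586 of all genes, called Plvap, and limma voom, which called 5478, Plvap and Cldn5. An unadjusted p under 0.05 was reached by 3 of the 10 genes and by 29.6% of all genes. Plvap had a log2 fold change of −0.44 (interval −0.75 to −0.13, adjusted p = 0.0761) and Cldn5 of −0.54 (−0.97 to −0.11, adjusted p = 0.102). Both were called without naïve mouse 3, which had the lowest Cldn5 and Plvap of its group (adjusted p = 0.0302 and 0.0212 for Plvap and Cldn5). After the length and GC correction they had −0.12 and −0.14. Pecam1 and Plvap were the 2 of 10 genes that lay wholly below the naïve mice, against 16.8% of all genes, and none lay wholly above, against 15.4%. Kdr had 0.60 (−0.17 to 1.36), or 0.13 without TD139 mouse 1. Called with a fold change of at least 2 on the log2 scale were 0.0263% of all genes, and none of the 10. This comparison and that of vehicle with naïve mice share the naïve mice, and both comparisons with vehicle share the vehicle mice, so their values are not independent.

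Set against the summed counts of the 16 endothelial identity genes in the same mouse, the genes differed in how their groups lay. The sum itself was higher in each vehicle mouse (89.1 to 101 CPM) than in each naïve mouse (66.1 to 83.8 CPM) or TD139 mouse (68.4 to 79.8 CPM), and the ratios carry that shift. Kdr counts were 2.09 to 2.51 times that sum in naïve, 2.8 to 4.8 times in vehicle and 2.78 to 5.25 times in TD139 mice, so that every light-exposed mouse lay above every naïve mouse. Tek was 0.0516 to 0.0602 times the sum in naïve, 0.0279 to 0.0441 times in vehicle and 0.0601 to 0.0752 times in TD139 mice, with the vehicle group apart from both others. The same held for Vegfa, at 2.19 to 3.81 times in naïve, 1.66 to 2.03 times in vehicle and 2.11 to 3.43 times in TD139 mice. Cdh5, at 0.0355 to 0.0526 times the sum, overlapped between all groups. Pdgfrb was 0.234 to 0.288 times the sum in naïve and 0.296 to 0.34 times in TD139 mice, with vehicle mice between at 0.258 to 0.311 times. Plvap was 0.314 to 0.339 times the sum in naïve, 0.246 to 0.306 in vehicle and 0.242 to 0.276 in TD139 mice. Cldn5 was 0.145 to 0.164 times the sum in TD139 mice, just below the 0.165 to 0.218 of vehicle mice. The ratios were also not corrected for transcript length. Over all tested genes with a length, the TD139 against naïve fold change had a Spearman correlation of 0.59 with it. After the length and GC correction the log2 fold change of TD139 against naïve mice was 0.39 for Kdr, 0.08 for Pdgfrb and 0.05 for Tek. These ratios are descriptions and were not tested.

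The endothelial identity genes had no call in vehicle against naïve mice in edgeR (3 at an unadjusted p under 0.05, 1 called by DESeq2 and 1 by limma voom), with a median log2 fold change of 0.26. The best expressed, Esam and Egfl7, had 0.25 and 0.28. In TD139 against vehicle mice 5 of 16 fell and none rose, where 16.2% of all genes fell and 17.2% rose, with a median of −0.30: Vwf, the clotting factor stored in endothelium, by 1.33, Ecscr by 1.44, Ramp2, a subunit of the adrenomedullin receptor, by 0.81, Cd34 by 0.66 and Egfl7 by 0.55 on the log2 scale. After the length and GC correction 2 of the 16 (Vwf and Cd34) were called lower, with Egfl7 at −0.13 and Ramp2 at −0.34, and the median was −0.15. The 5 calls became 1 without TD139 mouse 2, 0 without TD139 mouse 3, and 2 without vehicle mouse 2 or 3. Against naïve mice TD139 mice had no call in edgeR or DESeq2, none at an unadjusted p under 0.05, and 4 calls in limma voom.

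Of 21 blood-retina barrier genes, 3 rose in vehicle against naïve mice, where 4.91% of all genes did: Mfsd2a, the lipid transporter that restrains transcytosis, by a log2 fold change of 0.99, and the caveolar genes Cav1 and Ptrf (Cavin1) by 0.91 and 1.04. With TD139 against vehicle 5 of the list were called lower and 3 higher, shares near those of all genes (16.2% and 17.2%). The same 3 were among those called lower, at −1.37, −0.60 and −0.92. Lsr, of tricellular junctions, and Ndp, which encodes norrin, also fell, by 1.23 and 0.77. Fzd4, the norrin receptor, rose by 1.30, the junction scaffold Tjp1 by 0.74 and the adhesion molecule Jam2 by 0.59. The transcripts of these 3 genes are 4370 to 7049 bases long, and after the length and GC correction 2 genes of the list (Fzd4 and Jam2) were called higher and 6 lower, without Cav1 (−0.65, adjusted p = 0.0674 in edgeR) and with Abcg2 and Lrp5 added. Ndp is made by Müller glia, which express Cav1 too. The list's median was 0.14 and then −0.15. The 3 calls after light became 0 without naïve mouse 1 or 2 or vehicle mouse 3, 1 without naïve mouse 3, 2 without vehicle mouse 1 and 6 without TD139 mouse 1, and were 7 in DESeq2, 8 in limma voom and 5 after the length and GC correction. The 5 lower and 3 higher calls with TD139 against vehicle became 3 and 2 without TD139 mouse 2 or 3 or vehicle mouse 3. Between TD139 and naïve mice no gene of it was called in edgeR (5 at an unadjusted p under 0.05, 3 in DESeq2 and 4 in limma voom), with −0.34 for the glucose transporter Slc2a1.

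Among 20 tested ligands, receptors and co-receptors of the VEGF, angiopoietin, PDGF and Notch pathways, Pgf showed the largest differences. This second ligand of Flt1 was at 1.24 ± 0.146 CPM in naïve, 5.83 ± 2.65 in vehicle and 1.14 ± 0.735 in TD139 mice (SD, n = 3). Its log2 fold change was 2.23 for vehicle against naïve (standard error 0.45, adjusted p = 0.0235) and −2.35 for TD139 against vehicle (standard error 0.46, adjusted p = 0.00651, both in edgeR). Notch1 rose by 0.62 after light and fell by 0.36 with TD139. Also with TD139 against vehicle, Vegfb fell by 0.47 and Pdgfra by 1.03, while Jag1, a Notch ligand, rose by 1.26, Ptprb, a phosphatase that acts on TIE2, by 0.57 and the co-receptor Nrp2 by 0.37. In all, 2 of 20 rose after light against 4.91% of all genes, and with TD139 against vehicle 3 rose and 4 fell, shares near the 17.2% and 16.2% of all genes, and none passed against naïve mice in edgeR (5 at an unadjusted p under 0.05, 3 in DESeq2 and 6 in limma voom). The calls with TD139 against vehicle became 0 higher and 1 lower without TD139 mouse 2 or 3, 0 and 4 without vehicle mouse 1, 1 and 3 without vehicle mouse 2 and 1 and 2 without vehicle mouse 3, and those after light became 0 without any 1 naïve mouse or vehicle mouse 3 and 1 without vehicle mouse 1. After the length and GC correction none was called higher and 3 lower with TD139 (Pgf, Pdgfra and Notch1), and the log2 fold change was 0.05 for Vegfb, −0.01 for Ptprb, 0.07 for Nrp2 and 0.98 for Jag1.

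Of 16 tested hypoxia-response genes, many of them shared by every cell of the retina, Ddit4 and Ldha fell in vehicle against naïve mice, by 0.64 and 0.58 on the log2 scale, where 2.89% of all genes fell. These 2 calls became 0 without any 1 naïve mouse, vehicle mouse 1 or vehicle mouse 3, and 3 without TD139 mouse 1. With TD139 against vehicle, Hif1a and its partner Arnt rose by 0.61 each and the glycolytic Pgk1 fell by 0.33, so that 2 of 16 rose and 1 fell, where 17.2% and 16.2% of all genes did. After the length and GC correction Arnt was still called (0.45), Hif1a (0.24) and Pgk1 (−0.04) were not, and Ddit4 was called at 0.74. Against naïve mice Ankrd37 fell by 0.60, Ldha by 0.56 and Pgk1 by 0.45, where 2.38% of all genes fell, and none of these was called after the length and GC correction. Nor was any called with a replicate block or with only the groups compared. The same held without naïve mouse 1 or 2, TD139 mouse 2 or 3, or vehicle mouse 2. Vegfa, a target of this response, was not called in any comparison.

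Of the 15 tested pericyte and mural genes Anpep (CD13), which myeloid cells also carry, had the largest called differences, at 0.699 ± 0.261 CPM in naïve, 4.65 ± 1.15 in vehicle and 1.04 ± 0.524 in TD139 mice (SD, n = 3). It rose by 2.73 in vehicle against naïve mice and fell by 2.16 with TD139 against vehicle, on the log2 scale, and was the list's 1 call after light in edgeR, where 4.91% of all genes were called higher. DESeq2 and limma voom called 4 each there, and 2 were called with library sizes alone and with the length and GC correction, Vtn being lower in the latter (−0.55, adjusted p = 0.0385 in edgeR). Without naïve mouse 2 the list had no call after light. With TD139 against vehicle Cspg4 (NG2) fell by 1.00, while the pericyte gene Rgs5 rose by 0.91 and the smooth muscle gene Myh11 by 0.75, so that 2 rose and 2 fell, where 17.2% and 16.2% of all genes did. These became 0 higher and 1 lower without TD139 mouse 3, and 0 and 2 without vehicle mouse 1. They were 1 and 1 without TD139 mouse 2, vehicle mouse 2 or vehicle mouse 3. DESeq2 called 6 of the list and limma voom 7. After the length and GC correction Rgs5 (0.61) and Myh11 (0.51) were not called and Vtn, which photoreceptors also make and which stood at 664 to 1363 CPM, was, at 0.64. The list's median was 0.19 after light and −0.18 with TD139 against vehicle, and the latter turned to 0.06 after the correction and to 0.27 without vehicle mouse 2. Against naïve mice TD139 mice had no call in edgeR (2 at an unadjusted p under 0.05, 2 in DESeq2 and 3 in limma voom). Vtn, with the highest counts of the list, and Cald1 had log2 fold changes of −0.25 and 0.25 there. Vehicle mouse 2 stood apart in some genes of these lists, and 5 of the 7 fibroblast genes and 7 of the 9 tested pigment epithelium genes were highest there. Des, named after its values were seen, reached 56 CPM there and lay at 0.679 to 1.38 CPM in the other mice. Of the fibroblast genes Dcn, Col1a1 and Col3a1, also named after their values were seen, had 287, 248 and 217 counts in that mouse and at most 18, 52 and 49 in any other. Myh11, Col6a1 and Col6a2 were not highest in it. Of 7 tested perivascular fibroblast genes 1, Pdgfra, was called, lower with TD139 against vehicle. None was without vehicle mouse 2, naïve mouse 2 or any 1 TD139 mouse, in limma voom or with no filter, and 2 were in DESeq2. The list's median of 0.87 after light and −1.03 with TD139 against vehicle became −0.05 and −0.10 without that mouse. Col6a1 and Col6a2, with the highest counts of these, had log2 fold changes of 0.10 and 0.06 in vehicle against naïve mice and of 0.00 and −0.10 in TD139 against naïve mice.

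Markers of other cells moved with these comparisons, and their part in the vascular values was not tested. In vehicle against naïve mice 7 of 13 microglia and macrophage genes rose, with Csf1r, Trem2, Cx3cr1 and Tmem119 the best expressed of them, where 4.91% of all genes rose. Of 12 Müller glia and astrocyte genes 6 rose (Slc1a3, Aqp4, Vim, Clu, Apoe and Dkk3), and 8 of 10 rod genes fell, among them Gnat1, Prph2 and Rom1, where 2.89% of all genes fell. These 7, 6 and 8 calls became 0 without naïve mouse 1, naïve mouse 2 or vehicle mouse 3, were at most 1 without naïve mouse 3 or vehicle mouse 1, and became 13, 8 and 9 without TD139 mouse 1. With TD139 against vehicle 10 of the 13 microglia and macrophage genes fell, led in level by C1qc, C1qb, Csf1r and Cd68, as did 6 of 12 glial genes, Gfap, Vim, Clu, Apoe, Dkk3 and Car14, against 16.2% of all genes. Of the 10 rod genes 5 rose, among them Pde6b, Pde6a, Nr2e3 and Cnga1, against 17.2% of all genes. Without TD139 mouse 2, TD139 mouse 3 or vehicle mouse 3 these calls became 3, 3 and 5 for microglia and macrophages, 2, 2 and 3 for glia and 2 each for rods, and the rod calls were 3 without vehicle mouse 1 and 8 without TD139 mouse 1 or vehicle mouse 2. Of 9 pigment epithelium genes Rpe65, Ttr and Slc16a8 fell and Otx2 rose, and the number that fell became 0 without TD139 mouse 2 or 3 or vehicle mouse 2 and 1 without vehicle mouse 1. After the length and GC correction these 3 were not called lower (adjusted p = 0.0685, 0.106 and 0.12 in edgeR) and Lrat was, and 7 of the microglia and macrophage genes were, C1qc, C1qb and Cd68 no longer among them. The fold changes of these genes stayed near their size, with −0.72 for Rpe65, −1.11 for Ttr, −1.08 for Slc16a8, −2.36 for C1qc, −2.31 for C1qb and −2.29 for Cd68 after the correction. Between TD139 and naïve mice 1 gene of these 4 lists was called in edgeR, Aqp4, higher by a log2 fold change of 0.70, where 2.72% of all genes rose. That call was lost with the length and GC correction, with a replicate block and with only the groups compared. It was also lost without naïve mouse 1 or 2, TD139 mouse 2 or 3, or vehicle mouse 2. DESeq2 called 2 rod genes and 1 glial gene between TD139 and naïve mice, and limma voom 3 and 4.

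Blood cell markers differed in level. Of 9 platelet and neutrophil genes in the files, markers of cells that also carry Pecam1, 2 passed the filter and 4 were at 3 counts or fewer in every mouse. Gp1bb, a platelet glycoprotein, lay at 15.5 to 35.3 CPM over the 9 mice. It was called lower with TD139 against vehicle, by 0.71, but not after the length and GC correction (−0.32, adjusted p = 0.0993 in edgeR), and Itga2b had −0.63. Red cell genes summed to 6.19 to 21.5 CPM, and of the 2 tested, Beta-s (a haemoglobin beta gene) and Alas2, none was called in any comparison by edgeR, DESeq2 or limma voom or had an unadjusted p under 0.05.

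By the pattern over the 9 mice, the genes nearest to Cdh5 among 13092 others with at least 50 counts on average were Pdia3, Alg9 and Dpagt1. Their log2 CPM, each centred on its own mean, differed from that of Cdh5 by a root mean square of 0.0895 to 0.108, where Cdh5 itself varied by 0.181. For Pdgfrb they were Zhx2, Crat and Tmem200b (0.0656 to 0.0998, against 0.224), and for Vegfa Atg16l1, Desi1 and Prdm4 (0.0722 to 0.0823, against 0.211). For Kdr, added after its values were seen, they were Syt15, Gpr37 and Dapp1, at a looser 0.166 to 0.197 against 0.531. No other of the 10 genes was among the nearest of any of these 4. Only the 3 nearest of 13092 genes were taken for each, so whether the 10 genes vary together was not tested.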

How the data were processed

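Libraries of poly(A) RNA from whole retinas, made with a stranded kit, were read in 2 runs per mouse. The authors deposited, per mouse and run, a table of unscaled read counts per gene, in which reads outside genes and ambiguous reads have their own lines. They counted with BaseSpace RNA Express, and the submitters' processing notes name mm10. Annotation and strand setting are not given in the sources used here. The study's statement on data names normalized counts, but whole-number counts were held and used.
The runs of a mouse were summed, and lines without a gene left out. Tests used edgeR 4.0.16 in R 4.3.3 (filterByExpr, TMM, quasi-likelihood F test, all 9 mice in 1 fit), with Benjamini-Hochberg adjustment over 15196 genes. CPM are TMM-scaled. A standard error is the log2 fold change divided by the square root of F. DESeq2 1.42.0 and limma voom 3.58.1 with sample quality weights were alternatives, besides other scalings, filters, single runs, left-out mice, a block for the replicate number and a correction for length and GC content by a spline with 4 degrees of freedom per library. Lengths and positions came from GENCODE M21 on GRCm38. The tests were tried on simulated counts. The study calls the mice of a group biological replicates.
The members and gene lists were chosen with earlier results of these data known. Named were all 10 genes and, per list, each called gene where at most 6 were called, otherwise some of those with the highest counts, or the 2 with the highest counts where none was called. Some listed genes that this rule would name are not reported here.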

Additional observations from a re-analysis of the deposited data

How the results depend on the processing

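Compared with the values above, the number of the 10 genes called in vehicle against naïve mice, 0, became 1 with DESeq2, with library sizes alone and with only the groups compared, and 2 with limma voom (with sample quality weights, here and below), and ran from 0 to 2 when each mouse was left out. With TD139 against vehicle it became 0 from 2 with the length and GC correction, with or without a replicate block, and ran from 0 to 4 with mice left out. With TD139 against naïve it became 1 with DESeq2 and 2 with limma voom from 0, and ran from 0 to 2. A replicate block alone left these counts at 0, 2 and 0. Mice with the same number did not deviate together (correlations from −0.26 to 0.28), so the numbers were not taken to pair the mice.
Of all genes in the lists, 29 were called after light (48 in DESeq2, 55 in limma voom) and 4 in TD139 against naïve mice (15 in DESeq2, 32 in limma voom, 0 with the length and GC correction, with only the groups compared or with a replicate block, with or without that correction). The 53 called with TD139 against vehicle stayed within 1.5 times under the alternatives that kept all mice. With single mice left out, added after the data were seen, the counts ran from 0 (without naïve mouse 2) to 47 (without TD139 mouse 1) after light, from 17 (without TD139 mouse 2 or 3) to 60 with TD139 against vehicle, and from 0 to 12 (without naïve mouse 3) against naïve mice.
Among the 10 genes, directions turned for values near 0. For Pecam1 after light the fold change of 0.00 became 0.01, 0.02, 0.04 or 0.10 under some alternatives and ran from −0.12 to 0.07 without single mice. Cldn5 became 0.00 in limma voom and ran from −0.01 (without naïve mouse 3) to 0.32. With TD139 against vehicle, Angpt2 became 0.05 in run 1 alone, 0.04 without TD139 mouse 1 and 0.15 without vehicle mouse 1, in a range from −0.12. Against naïve mice, Cdh5 became −0.02 in limma voom and in run 1 alone and ran from −0.04 (without naïve mouse 3) to 0.16, Tek became −0.06 in limma voom, and Vegfa 0.05 in limma voom and without TD139 mouse 1 and ran from −0.19 to 0.07 (without naïve mouse 3). The cause was not tested. The lowest count of the 10 genes was 77 and the highest 11980 per mouse, so counting error weighs most on the low genes Cdh5, Tek and Angpt2.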
